A study of Mus musculus with 12 samples.

Results

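The genes described here encode the subunits of voltage-gated sodium channels, voltage-gated calcium channels and the hyperpolarization-activated (HCN) channels. They were taken by symbol: every protein-coding row named Scn with a number and a or b, Cacna, Cacnb, Cacng, or Hcn with a number. This gave 44 of the 38887 genes listed, of which 14 belonged to sodium channels, 26 to calcium channels and 4 to HCN channels. The rule reads symbols and no expression value. Of the 44 genes, 35 had an RPKM (reads scaled to gene length and library total, as deposited) no lower than 1 in 3 or more of the 12 libraries and were tested.

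RNA had been sequenced from retinal ganglion cells, the output neurons of the retina, in a study that sought regulators of axon regeneration. Each of 4 groups held 3 libraries. Opn4 cells came from mice of genotype Opn4CreERT/+;R26-tdTomatof/f, in which Cre driven from the melanopsin locus switches on a red reporter in intrinsically photosensitive (melanopsin) ganglion cells. HB9 cells, from the HB9:GFP line, carry GFP in direction-selective ganglion cells of the ON-OFF type (ooDSGCs). Mice of both lines received tamoxifen intraperitoneally at 0.124 mg/g on 5 days from postnatal day 21. At postnatal day 42 they had sham surgery or optic nerve crush, which severs ganglion cell axons, and tissue was taken 3 days later. For all libraries papain was used at 17 U/ml for 30 minutes at 37 °C, and picking was limited to 2 hours. Each library held 3 combined pools of 10 fluorescent cells, picked by pipette, with 10 cells taken from an animal. Cre and the red reporter were present in the Opn4 line only and cannot be told apart from the cell class. The labels call each combined pool a biological sample, and p-values measure the spread between such pools.

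The libraries had been scaled to totals of 15104446 to 28195798 reads, and a tested channel gene had a median of 1480.5 recovered reads per library. The class labels held: melanopsin (Opn4) lay between 1255 and 1773 RPKM in the 6 Opn4 libraries and at most at 24.3 RPKM in HB9 libraries, while Mnx1, the HB9 gene, lay between 1.13 and 41.7 RPKM in HB9 cells and at most at 0.144 in Opn4 cells. Cartpt, the other ooDSGC marker listed, was not confined to HB9 cells. Mnx1 and Cartpt summed to 134 to 177 RPKM (Opn4 sham), 81.9 to 155 (Opn4 crush), 4752 to 5969 (HB9 sham) and 1367 to 6398 RPKM (HB9 crush). The first replicates of Opn4 sham and Opn4 crush stood apart on the third principal component of all tested genes. The 13 rod photoreceptor markers summed to 761 to 2022 RPKM after sham and 1132 to 3174 RPKM after crush in Opn4 libraries, against 306 to 1012 and 581 to 967 RPKM in HB9 libraries. For all 13 the log2 difference between the classes was positive, Opn4 minus HB9, both with sham surgery and with crush, and 1 passed each test. The 8 ganglion cell markers summed to 4975 to 5333 RPKM (Opn4 sham), 4102 to 4735 (Opn4 crush), 8426 to 9437 (HB9 sham) and 5053 to 5746 RPKM (HB9 crush). The 6 bipolar markers summed to 65.2 to 119 RPKM (Opn4 sham), 39.0 to 245 (Opn4 crush), 38.7 to 51.7 (HB9 sham) and 7.34 to 61.7 RPKM (HB9 crush). For 6 cone markers the sums were 0.382 to 145, 1.04 to 339, 2.64 to 6.33 and 0.00490 to 99.4 RPKM in the same order. The sum of 7 amacrine markers was 21.1 to 102 RPKM in Opn4 sham and 47.4 to 63.5 RPKM in Opn4 crush libraries. In HB9 libraries it was 3.10 to 26.2 RPKM after sham and 50.5 to 131 RPKM after crush. That of 6 glial markers in HB9 libraries was 13.2 to 18.2 and 41.2 to 46.1 RPKM, with Aqp4 at 0 in all 6. The 6 microglial markers summed to 2.62 to 5.85 RPKM (Opn4 sham), 0.614 to 14.6 (Opn4 crush), 3.04 to 3.93 (HB9 sham) and 5.20 to 5.47 RPKM (HB9 crush). Of these, P2ry12 and Tmem119 were at 0 in all HB9 sham and HB9 crush libraries.

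Sodium channels carry the rising phase of the action potential. Each is built around a large pore-forming alpha subunit with smaller beta subunits that set its gating and its place in the membrane, above all at the axon initial segment and nodes. Calcium channels combine an alpha1 pore with an alpha2delta and a beta subunit that bring it to the surface, and couple spikes to transmitter release and gene expression. Most genes named Cacng encode transmembrane regulators of AMPA-type glutamate receptors (TARPs). HCN channels open when the membrane hyperpolarizes and pass the depolarizing h-current, which shapes resting potential and rebound firing.

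On chromosome 2 the adjacent sodium channel alpha genes Scn1a, Scn9a and Scn7a differed between the classes, and not all in the same direction. On build mm10 the alpha genes of this cluster run in the order Scn3a, Scn2a1, Scn1a, Scn9a and Scn7a. The deposited coordinates leave gaps of 53229 bp between Scn3a and Scn2a1, 39239 bp between Scn1a and Scn9a, and 38472 bp between Scn9a and Scn7a, each with no other protein-coding gene between. The 503333 bp between Scn2a1 and Scn1a hold Csrnp3, Galnt3 and Ttc21b. Scn1a was lower, and its neighbours Scn9a and Scn7a higher, in Opn4 cells. The 250 bases upstream of the RefSeq start of these 3 neighbours, and of 1 of the 2 starts of the TARP gene Cacng5, which fell most after crush in HB9 cells, are printed 5′ to 3′ on the strand of the gene (build GRCm38.p6), with matches to the searched motifs in capitals.
Scn1a, chr2:66440838-66441087, minus strand: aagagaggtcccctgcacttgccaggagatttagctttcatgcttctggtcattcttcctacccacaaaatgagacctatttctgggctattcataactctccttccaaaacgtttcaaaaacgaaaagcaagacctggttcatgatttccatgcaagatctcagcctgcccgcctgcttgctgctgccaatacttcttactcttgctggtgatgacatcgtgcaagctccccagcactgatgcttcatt
Scn9a, chr2:66634963-66635212, minus strand: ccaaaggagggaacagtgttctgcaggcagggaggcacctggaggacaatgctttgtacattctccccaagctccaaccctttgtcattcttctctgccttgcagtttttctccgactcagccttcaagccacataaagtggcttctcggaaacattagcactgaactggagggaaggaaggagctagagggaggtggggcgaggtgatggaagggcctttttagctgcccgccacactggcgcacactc
Scn7a, chr2:66784911-66785160, minus strand: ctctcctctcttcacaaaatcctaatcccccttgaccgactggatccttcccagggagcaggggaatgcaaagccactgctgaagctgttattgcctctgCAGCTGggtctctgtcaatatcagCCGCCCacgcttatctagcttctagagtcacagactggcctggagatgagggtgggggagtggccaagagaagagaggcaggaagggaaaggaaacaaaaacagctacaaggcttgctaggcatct
Cacng5, chr11:107915056-107915305, minus strand: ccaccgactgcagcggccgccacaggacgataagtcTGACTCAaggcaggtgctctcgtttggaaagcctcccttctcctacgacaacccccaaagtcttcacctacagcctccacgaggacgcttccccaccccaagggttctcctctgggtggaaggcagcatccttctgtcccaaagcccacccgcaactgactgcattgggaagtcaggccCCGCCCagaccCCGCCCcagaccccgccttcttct

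The searched motifs, on both strands, were a GC box (GGGCGG), an E-box (CAGCTG), a T-box motif (AGGTGT), an AP-1 motif (TGANTCA) and a CRE (by name, the palindromic cyclic AMP response element). The windows of Scn1a and Scn9a held none of the 5 motifs. That of Scn7a held a GC box 126 bases and an E-box 150 bases upstream of the start, and that of Cacng5 held GC boxes at 24 and 35 bases and an AP-1 motif at 214 bases. The window of the other Cacng5 start, not printed, held none of the 5. Over all 32851 promoters in the table, 32.7% held the GC box, 13.0% the E-box, 11.8% the T-box motif, 6.75% the AP-1 motif and 1.55% the CRE. Promoters were found for 32 of the 44 channel genes (43 promoters), and 39.5%, 25.6%, 6.98%, 2.33% and 0% of these held the motifs in the same order. These matches describe letters only.

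After sham surgery the classes differed in 12 of the 35 tested channel genes, 5 higher and 7 lower in Opn4 cells (limma, adjusted p under 0.05 over 18269 genes). Over all tested genes 11.8% passed, 5.82% higher and 5.93% lower. The median log2 difference of the channel genes was -0.01, against 0.01 over all genes. After crush 14 differed, 9 higher and 5 lower, where 12.7% of all genes passed, 5.12% higher and 7.6% lower (936 and 1389 genes, against 1160 and 1185 with quantile normalization, which left the channel counts at 9 and 5). That median was 0.40, against -0.12 over all genes. Sodium channel genes gave 8 of the 12 differences after sham and 7 of the 14 after crush, from 11 tested. The sham and crush comparisons contrast different libraries but share the spread fitted over all 12, so they are not independent tests. Passing in both were 10 genes, all 10 in the same direction: 83.3% of the sham list and 71.4% of the crush list. Over all tested genes 934 passed in both, 43.5% of those called after sham and 40.2% of those called after crush, 921 of them in the same direction. With the rod markers as a covariate 11 passed after sham, 5 higher and 6 lower, and 11 after crush, 6 higher and 5 lower, where 4.95% and 5.47% of all genes passed in that fit. The part of the ganglion cell, cone, bipolar, amacrine, glial and microglial markers in these and the crush differences was not tested.

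Crush moved fewer channel genes. In Opn4 cells 1 of 35 changed, a fall, where 1.11% of all genes passed, 0.69% higher and 0.421% lower. In HB9 cells 7 changed, 1 rise and 6 falls, where 6.42% of all genes passed, 3.84% higher and 2.57% lower (702 and 470 genes). With quantile normalization, which moved the median gene of that comparison from 0.11 to -0.01 on the log2 scale, 600 genes were higher and 605 lower, and of the channel genes 1 rose and 8 fell. The median channel gene changed by -0.24 on the log2 scale in Opn4 cells and by -0.73 in HB9 cells, against -0.02 and 0.11 over all genes. At an unadjusted p under 0.05 these counts were 6 of 35 in Opn4 and 15 of 35 in HB9 cells, where 14.3% and 18.9% of all genes passed. A difference between the 2 crush effects (Opn4 minus HB9) passed for 1 gene, where 0.816% of all genes passed, 0.29% positive and 0.525% negative. Its median was 0.49 over the channel genes and -0.13 over all genes. In pooled cells, fewer cells making a transcript and less of it in each cell cannot be told apart.

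Among the sodium channel alpha genes, 7 of 10 were tested, and HB9 cells were led by Scn1a while Opn4 cells were led by Scn2a1. Scn1a (ENSMUSG00000064329, chromosome 2, 66270781 to 66440840), the main sodium channel pore of many fast-spiking neurons, stood at 13.3, 25.9 and 20.9 RPKM in Opn4 sham and 128, 136 and 161 RPKM in HB9 sham libraries. After crush it was at 17.2, 14.1 and 14.5 RPKM in Opn4 and 55.0, 49.8 and 50.7 RPKM in HB9 libraries. No Opn4 library reached the lowest HB9 library, and within HB9 cells every crush library lay below every sham library. The log2 class difference was -2.80 ± 0.25 after sham (SE, n = 3 libraries per group, limma adjusted p = 1.3e-05) and -1.71 ± 0.25 after crush (adjusted p = 0.000705). Scn1a fell by 1.43 ± 0.25 after crush in HB9 cells (limma adjusted p = 0.00349), while in Opn4 cells the change was -0.33 ± 0.25 (adjusted p = 0.583). The difference between these effects, 1.10 ± 0.35, did not pass (adjusted p = 0.193).

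Scn8a, the pore of mature initial segments and nodes that also carries persistent current, was likewise lower in uninjured Opn4 cells. It measured 7.85, 12.6 and 9.17 RPKM in Opn4 sham and 44.7, 43.5 and 44.2 RPKM in HB9 sham libraries, groups far apart on this scale (log2 difference -2.08 ± 0.30, limma adjusted p = 0.000633). After crush the libraries read 7.46, 9.40 and 12.9 RPKM for Opn4 and 24.6, 19.3 and 16.3 RPKM for HB9. The groups still did not overlap, but the difference of -0.96 ± 0.30 narrowly missed the threshold (limma adjusted p = 0.0535). It passed with no filter (limma adjusted p = 0.0468), with voom on recovered reads (0.0313) and without Opn4 crush replicate 3 (0.0363), and in no other alternative. In HB9 cells Scn8a fell by 1.12 ± 0.30 after crush (adjusted p = 0.0426). This call ended when any 1 of the 6 HB9 libraries was left out (adjusted p from 0.0703 to 0.163) and with rod transcripts as a covariate (0.0809). Scn8a in Opn4 cells showed no fitted change, 0.00 ± 0.30 (limma adjusted p = 1).

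Scn9a, best known from pain-sensing peripheral neurons, was the alpha gene with the largest difference in favour of Opn4 cells apart from Scn7a. Scn9a (ENSMUSG00000075316, chromosome 2, 66480080 to 66634952) was at 29.9, 45.3 and 32.4 RPKM in Opn4 sham and 2.55, 2.32 and 3.01 RPKM in HB9 sham libraries. Crush libraries held 24.2, 25.0 and 29.0 RPKM in Opn4 cells and 3.00, 3.22 and 4.38 RPKM in HB9 cells. All 6 Opn4 libraries lay above all 6 HB9 libraries, with a log2 difference of 3.33 ± 0.32 after sham (limma adjusted p = 2.57e-05) and 2.59 ± 0.32 after crush (adjusted p = 0.000232). The antisense gene Gm13629, which overlaps Scn9a and was picked out after its values were seen, went the other way. It measured 3.27 to 17.0 RPKM in Opn4 libraries and 29.0 to 56.3 RPKM in HB9 libraries (log2 difference -1.88 ± 0.44 after sham, limma adjusted p = 0.0150, and -3.07 ± 0.44 after crush, 0.000715). The sources used here do not state whether counting used strand, so reads of Scn9a and Gm13629 where they overlap may not be separated.

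Scn7a encodes a sodium-level sensor related to the voltage-gated pores and best known from glia and circumventricular organs. Its RPKM (ENSMUSG00000034810, chromosome 2, 66673425 to 66784914) was 15.4, 24.1 and 18.8 in Opn4 sham and 0.364, 0.896 and 0 in HB9 sham libraries. After crush it was 18.9, 19.0 and 29.3 in Opn4 and 1.05, 0.00967 and 0.0206 in HB9 libraries. The transcript was thus close to absent in HB9 pools, where the pseudocount of 1 damps the log2 difference to 3.88 ± 0.45 after sham (limma adjusted p = 0.00012) and 4.16 ± 0.45 after crush (adjusted p = 8.8e-05). The 6 glial markers summed to 21.4 to 47.3 RPKM in Opn4 sham, 16.6 to 229.7 in Opn4 crush and 13.2 to 18.2 RPKM in HB9 sham libraries, with Gfap at 0 in all of these. In HB9 crush libraries that sum, 41.2 to 46.1 RPKM, lay within the range of Opn4 sham and Scn7a was at or below 1.05 RPKM. The part of glial RNA in the Scn7a difference was not tested.

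Scn3a, a pore typical of the embryonic brain, was higher in Opn4 cells too. The Opn4 sham libraries gave 30.2, 22.6 and 32.0 RPKM and the HB9 sham libraries 4.49, 5.49 and 3.21 RPKM, a log2 difference of 2.45 ± 0.42 (limma adjusted p = 0.00195). After crush Scn3a was at 15.1, 29.8 and 24.2 RPKM in Opn4 cells and 3.03, 4.57 and 9.72 RPKM in HB9 cells. The groups did not overlap, and the difference of 1.90 ± 0.42 passed (limma adjusted p = 0.00999) but not when those 6 libraries were fitted alone (0.0545). Scn2a1, the pore of immature initial segments and unmyelinated axons, was the most evenly shared: 69.6, 102 and 72.4 RPKM in Opn4 sham, 50.9, 42.02 and 58.2 in Opn4 crush, 37.9, 60.5 and 59.1 in HB9 sham and 35.0, 35.0 and 32.9 RPKM in HB9 crush libraries. Even so, Opn4 libraries lay above HB9 libraries in both states, and crush libraries lay below sham libraries in both classes. None of the 5 comparisons passed for Scn2a1, the nearest being the class difference after sham, 0.63 ± 0.24 (limma adjusted p = 0.114). With library weights the fall in HB9 cells passed (-0.62, limma adjusted p = 0.0397).

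Other alpha genes were low. Scn4a of skeletal muscle and the nociceptor genes Scn10a and Scn11a were not tested, with highest values of 0.398, 0.0748 and 0.209 RPKM in any library.

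**Figure D1:**
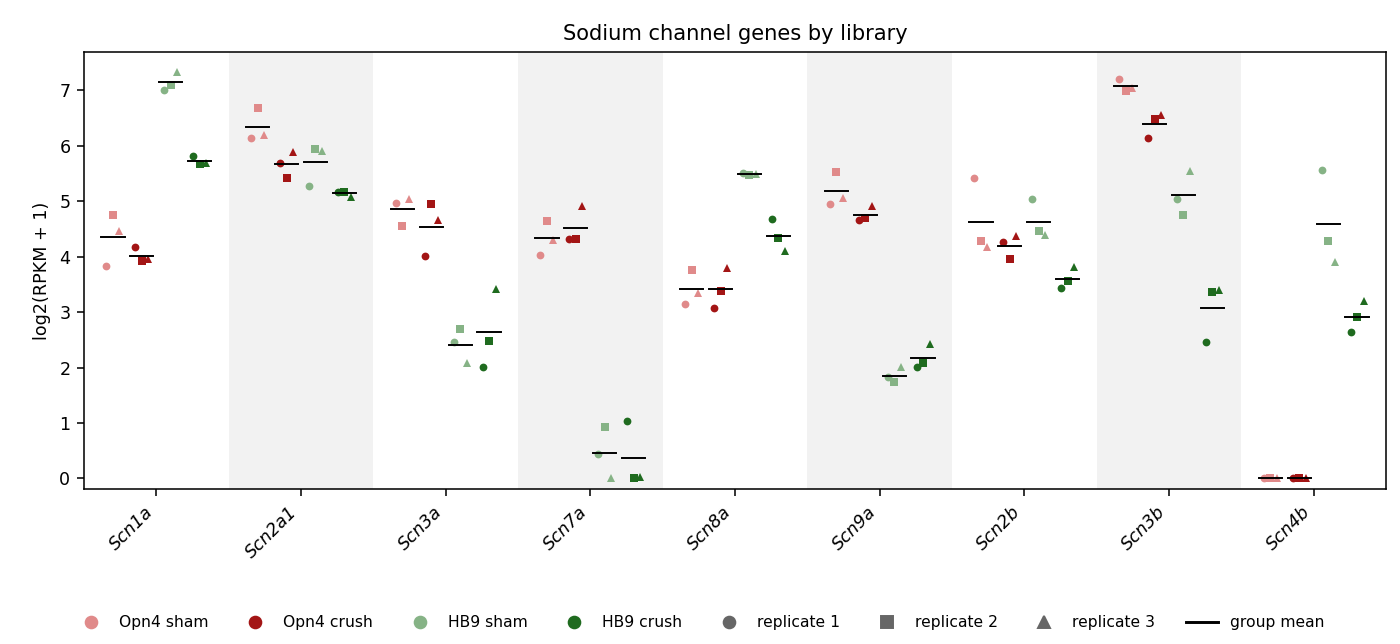
Levels of 9 tested sodium channel genes (x axis) as log2(RPKM + 1) (y axis) in the 12 libraries, with colours for the 4 groups, marker shapes for replicates and black bars for group means. Scn1a, Scn8a and Scn4b sit higher in HB9 sham than in Opn4 sham cells, and Scn3a, Scn7a, Scn9a and Scn3b sit lower.

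As shares of the summed RPKM of the 10 alpha genes, which compares transcripts per length, Scn1a made up 10.0 ± 1.92% in Opn4 sham, 10.5 ± 2.14% in Opn4 crush, 57.5 ± 2.75% in HB9 sham and 44.1 ± 1.04% in HB9 crush libraries (SD, n = 3). Scn2a1 held 41.2 ± 2.33%, 34.3 ± 3.95%, 21.1 ± 3.46% and 29.2 ± 1.49% in the same order. Scn9a held 18.1 ± 1.04% and 17.8 ± 0.441% in the Opn4 groups against 1.07 ± 0.126% and 3.01 ± 0.650% in the HB9 groups. The composition thus separated every Opn4 library from every HB9 library, with the Scn1a share at most 12.8% in the former and at least 43.2% in the latter. The sum itself was 197 ± 33.6 and 147 ± 18.4 RPKM in Opn4 sham and crush and 246 ± 26.2 and 118 ± 4.12 RPKM in HB9 sham and crush libraries.

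**Figure D2:**
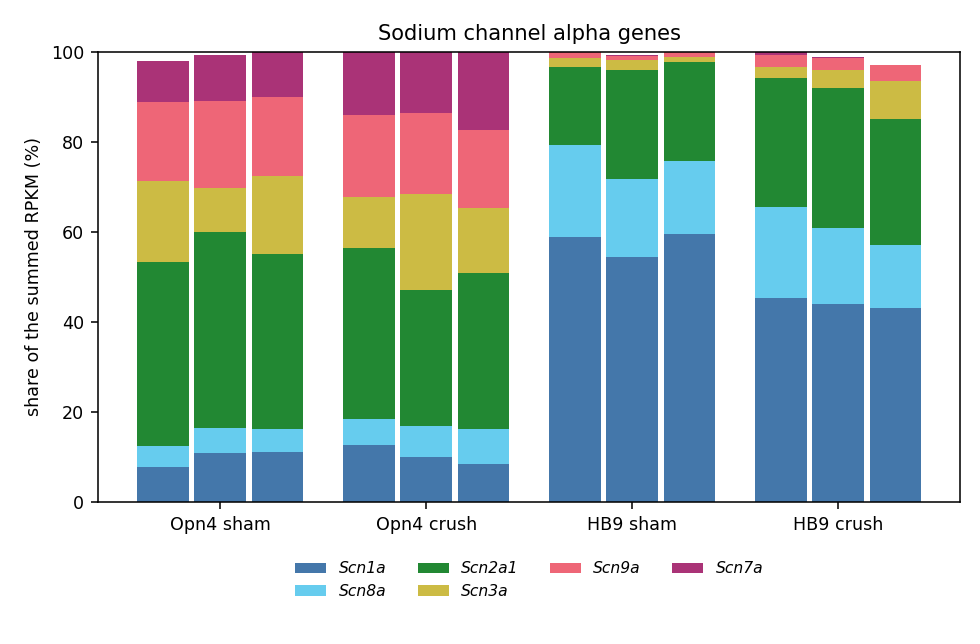
Share of the summed RPKM (y axis, %) held by 6 sodium channel alpha genes in each library, with 1 bar per library in replicate order within its group and any remainder belonging to alpha genes not drawn. The Scn1a share is 10.0% on average in Opn4 sham and 57.5% in HB9 sham libraries.

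Among the beta subunit genes, Scn3b was higher in Opn4 cells and Scn4b in HB9 cells. Scn3b encodes a beta subunit that binds its pore without a covalent link. Values were 147, 126 and 131 RPKM in Opn4 sham, 69.6, 88.8 and 93.2 in Opn4 crush, 31.8, 25.9 and 45.6 in HB9 sham and 4.48, 9.32 and 9.48 RPKM in HB9 crush libraries. Opn4 libraries lay above HB9 libraries in both states, by 1.97 ± 0.29 after sham (limma adjusted p = 0.000715) and 3.33 ± 0.29 after crush (adjusted p = 1.74e-05) on the log2 scale. In HB9 cells Scn3b fell by 2.04 ± 0.29 after crush (limma adjusted p = 0.000931). In Opn4 cells the crush libraries also lay below the sham libraries, at -0.69 ± 0.29, which did not pass (adjusted p = 0.302). The difference of the effects was 1.35 ± 0.41 (limma adjusted p = 0.176).

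Scn4b, whose intracellular tail is known for shaping resurgent sodium current, had no read in any of the 6 Opn4 libraries. In HB9 cells it was at 46.3, 18.6 and 13.9 RPKM after sham and 5.27, 6.50 and 8.20 RPKM after crush. Against a floor of 3 reads over the Opn4 group, HB9 cells held at least 2573-fold more after sham and at least 620.5-fold more after crush. Without HB9 sham replicate 1, the highest library, the first bound was 1592-fold. These bounds cover the counting error of reads only, since amplified reads are not independent molecules. The fitted class differences, -4.58 ± 0.46 (limma adjusted p = 3.8e-05) and -2.92 ± 0.46 (adjusted p = 0.00131), are damped by the pseudocount. Every HB9 crush library lay below every HB9 sham library, and that change of -1.67 ± 0.46 sat at the threshold without passing (limma adjusted p = 0.0510). It passed in 6 alternatives, with adjusted p-values down to 0.00805. The neighbouring gene Scn2b, 8366 bp away and, like Scn4b, encoding a subunit joined to its pore by a disulfide bond, overlapped between the classes after sham. It stood at 41.6, 18.4 and 17.1 RPKM in Opn4 sham, 18.2, 14.6 and 19.6 in Opn4 crush, 32.0, 20.9 and 20.1 in HB9 sham and 9.87, 10.8 and 13.1 RPKM in HB9 crush libraries. No comparison of Scn2b passed, and only with library weights was its fall in HB9 cells called (-1.04, limma adjusted p = 0.0129).

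Calcium channel pore genes were lower than the sodium channel genes in summed RPKM. The summed RPKM of the 10 alpha1 genes was 37.1 ± 6.47 in Opn4 sham, 41.3 ± 14.2 in Opn4 crush, 28.8 ± 2.49 in HB9 sham and 15.3 ± 3.96 in HB9 crush libraries (SD, n = 3). Of the 8 tested, 1 differed between classes after sham and 1 after crush, both T-type genes, and none passed after crush in either class (limma; at an unadjusted p under 0.05, Cacna1i in Opn4 cells and Cacna1a and Cacna1i in HB9 cells). T-type channels open near the resting potential and support rebound bursts.

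Cacna1h, a T-type pore, was at 6.24, 22.1 and 14.5 RPKM in Opn4 sham and 4.23, 4.05 and 4.41 RPKM in HB9 sham libraries. All Opn4 libraries were higher, but they spread widely and the difference of 1.39 ± 0.54 did not pass (limma adjusted p = 0.122). Without Opn4 sham replicate 1, the lowest of the 3, it did (1.86, adjusted p = 0.0482). After crush the values were 21.3, 27.1 and 7.56 RPKM in Opn4 and 3.03, 1.75 and 1.10 RPKM in HB9 libraries, a log2 difference of 2.62 ± 0.54 (limma adjusted p = 0.00706). With the rod markers as a covariate the estimate was 2.54 and the call ended (adjusted p = 0.0676). The end of Cacna1h overlaps Tpsg1, a tryptase gene on the opposite strand, picked out after its values were seen. Tpsg1 measured 3.82 to 34.4 RPKM in Opn4 libraries and 0.0544 to 1.08 RPKM in HB9 libraries, so it moved with class as Cacna1h did. Its part in the Cacna1h difference was not tested.

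Cacna1i, a T-type pore of slow kinetics, was lower in Opn4 cells after sham. It measured 0.151, 0.0269 and 0.208 RPKM in Opn4 sham and 1.93, 2.58 and 2.65 RPKM in HB9 sham libraries, a log2 difference of -1.58 ± 0.47 (limma adjusted p = 0.0463). After crush the Opn4 libraries held 5.81, 3.14 and 1.06 RPKM and the HB9 libraries 0.467, 1.28 and 0.203 RPKM, which overlapped (1.28 ± 0.47, limma adjusted p = 0.0980). In Opn4 cells every crush library lay above every sham library, and in HB9 cells every crush library lay below. Neither change passed, at 1.78 ± 0.47 (limma adjusted p = 0.0965) and -1.08 ± 0.47 (adjusted p = 0.230), nor did their difference, 2.87 ± 0.67 (0.0719). Without Opn4 crush replicate 3 the rise in Opn4 cells passed (2.24, adjusted p = 0.0410), as did the difference (3.32, 0.0303) and the class difference after crush (1.74, 0.0294). The class call after sham ended without any 1 of its 6 libraries (adjusted p from 0.0874 to 0.129), and with rod transcripts as a covariate (0.145). Cacna1g, the third T-type pore, ranged from 0.0129 to 6.94 RPKM, overlapped in every comparison and passed in none.

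The L-type, P/Q-type and N-type pores showed no called difference. Of the L-type genes, Cacna1c lay between 0.0719 and 2.11 RPKM and Cacna1d, a pore of many neurons, between 0 and 9.25 RPKM. Cacna1f, the L-type pore of photoreceptor terminals, lay between 0 and 6.95 RPKM, with the highest value in Opn4 crush replicate 1. The skeletal muscle pore Cacna1s was not tested. It was at 6.29, 2.07 and 0.0433 RPKM in Opn4 crush libraries and at or below 0.466 RPKM elsewhere. Cacna1a, the P/Q-type pore of fast synapses, was at 5.44, 5.11 and 2.04 RPKM in Opn4 sham and 10.1, 9.31 and 12.3 RPKM in HB9 sham libraries. The groups did not overlap, but the difference of -1.22 ± 0.48 did not pass (limma adjusted p = 0.125). In HB9 crush libraries Cacna1a measured 4.23, 2.76 and 4.80 RPKM, all below HB9 sham (-1.24 ± 0.48, limma adjusted p = 0.161). Only with library weights were the class difference after sham (-1.34, limma adjusted p = 0.0441) and this fall (-1.19, 0.0325) called. The N-type pore Cacna1b lay between 1.11 and 5.09 RPKM. The R-type pore Cacna1e was not tested: 2.14, 2.05 and 0.6997 RPKM in Opn4 sham libraries, and at most 0.568 RPKM in the others.

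Among the alpha2delta genes, the class difference of Cacna2d2 after crush was the only call. Cacna2d2 encodes a gabapentin-binding subunit. It was at 18.3, 9.50 and 10.3 RPKM in Opn4 crush and 1.83, 2.17 and 2.88 RPKM in HB9 crush libraries, groups that stood well apart (log2 difference 2.01 ± 0.39, limma adjusted p = 0.00528). After sham the corresponding values were 11.4, 11.2 and 15.5 RPKM and 4.26, 8.17 and 5.74 RPKM, also without overlap, at 0.98 ± 0.39 (adjusted p = 0.138). Cacna2d3 had the highest mean of the 4 in each group, with libraries between 13.7 and 89.3 RPKM. In HB9 sham replicate 3 it was below Cacna2d1 (13.7 against 15.7 RPKM). In HB9 cells every crush library of Cacna2d3 lay above every sham library, without passing (1.15 ± 0.41, limma adjusted p = 0.134). A pseudogene overlapping Cacna2d3 on the opposite strand, Gm6043, lay between 246 and 539 RPKM. Cacna2d1, the other gabapentin-binding subunit, lay between 2.05 and 17.8 RPKM. Cacna2d4, the subunit of photoreceptor terminals, lay between 0 and 23.6 RPKM, its highest value being in Opn4 crush replicate 2.

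Among the cytoplasmic beta subunits, Cacnb3 was the only channel gene called after crush in both classes. Cacnb3, the most abundant of the 4 after sham, was at 133, 99.6 and 90.8 RPKM in Opn4 sham and 36.9, 36.2 and 45.7 RPKM in Opn4 crush libraries. In HB9 cells it was at 136, 189.9 and 219.9 RPKM after sham and 61.3, 34.1 and 56.5 RPKM after crush. In both classes every crush library lay below every sham library. Cacnb3 fell by 1.41 ± 0.26 in Opn4 cells (limma adjusted p = 0.0209) and by 1.84 ± 0.26 in HB9 cells (adjusted p = 0.000888), and the effects differed by 0.43 ± 0.37 (0.687). The Opn4 call ended without Opn4 sham replicate 1 (adjusted p = 0.0670), without Opn4 crush replicate 1 (0.0514) and without Opn4 crush replicate 2 (0.0512). It also ended without both libraries that stand apart (adjusted p = 0.103), with library weights (0.131) and in 3 other alternatives.

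Cacnb4, the next beta gene after sham, stood at 26.6, 27.3 and 39.3 RPKM in Opn4 sham and 51.7, 43.0 and 48.0 RPKM in HB9 sham libraries. After crush it was at 28.2, 16.8 and 24.8 RPKM in Opn4 and 24.5, 21.3 and 29.9 RPKM in HB9 libraries, so the classes overlapped. In HB9 cells the crush libraries lay below the sham libraries, at -0.90 ± 0.26, without passing (limma adjusted p = 0.0655), though 4 alternatives called it. Cacnb1 lay between 17.9 and 49.5 RPKM and Cacnb2, the beta subunit of photoreceptor synapses, between 3.28 and 17.3 RPKM, with no call. The summed beta RPKM was 169 ± 15.6 and 107 ± 14.3 in Opn4 sham and crush and 271 ± 51.4 and 105 ± 23.4 in HB9 sham and crush libraries (SD, n = 3).

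The TARP gene Cacng5 gave the largest crush response of any channel gene that passed. Its product is a type II TARP, which alters the gating of AMPA receptors. Cacng5 (ENSMUSG00000040373, chromosome 11, 107874605 to 107915055) was at 135, 139 and 200.4 RPKM in HB9 sham and 23.8, 17.7 and 24.8 RPKM in HB9 crush libraries. In Opn4 cells it was at 119, 118 and 97.9 RPKM after sham and 71.3, 61.7 and 41.0 RPKM after crush. Crush libraries lay below sham libraries in both classes, with a fitted change of -2.78 ± 0.24 in HB9 cells (limma adjusted p = 3e-05) and -0.97 ± 0.24 in Opn4 cells, where the change missed the threshold (adjusted p = 0.0807). The difference between the effects, 1.81 ± 0.35, was the only one to pass among the 35 genes (limma adjusted p = 0.0318). It ended in 14 of 22 alternatives with adjusted p-values up to 0.0901, among them the omission of any 1 of the 6 HB9 libraries (0.0554 to 0.0901), of Opn4 sham replicate 2 (0.0534) or 3 (0.0790), and of Opn4 crush replicate 1 (0.0595) or 2 (0.0569).

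The class difference of Cacng5 did not pass after sham (-0.48 ± 0.24, limma adjusted p = 0.253), and after crush Opn4 cells held more of it (1.33 ± 0.24, adjusted p = 0.00366). With rod transcripts as a covariate that call ended at 1.21 (adjusted p = 0.0532). Cacng4, its neighbour 80047 bp away and a type I TARP gene, showed a similar layout. It stood at 8.11, 17.1 and 9.91 RPKM in Opn4 sham, 15.1, 6.17 and 8.26 in Opn4 crush, 19.4, 13.0 and 9.25 in HB9 sham and 1.74, 3.601 and 1.65 RPKM in HB9 crush libraries. The HB9 crush libraries lay below all others, with a fall of 2.15 ± 0.46 in HB9 cells (limma adjusted p = 0.0131) and a class difference after crush of 1.67 ± 0.46 (adjusted p = 0.0305). The fall was not called without HB9 sham replicate 1 (adjusted p = 0.0683) or 2 (0.0512), or without HB9 crush replicate 1 (0.0604) or 3 (0.0577). The class difference ended in 9 alternatives, among them the rod covariate (1.21, adjusted p = 0.270) and the omission of Opn4 crush replicate 1 (0.0992) or 3 (0.0507) or HB9 crush replicate 1 (0.102) or 3 (0.103).

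Cacng3, another type I TARP gene, separated the classes with little change after crush. Its RPKM was 43.3, 32.5 and 33.1 in Opn4 sham, 30.2, 57.1 and 30.1 in Opn4 crush, 106, 127 and 140.4 in HB9 sham and 133, 142 and 117 in HB9 crush libraries. All HB9 libraries were above all Opn4 libraries (log2 difference -1.75 ± 0.25 after sham, limma adjusted p = 0.000596, and -1.78 ± 0.25 after crush, 0.000615). The crush changes were 0.05 ± 0.25 and 0.08 ± 0.25 in Opn4 and HB9 cells (limma adjusted p = 0.957 and 0.918). As a result of these levels Cacng5 held 50.6 ± 3.14% of the summed Cacng RPKM in HB9 sham and 13.8 ± 3.15% in HB9 crush libraries, and Cacng3 40.2 ± 3.18% and 81.0 ± 2.58% (SD, n = 3). Cacng2 (stargazin) lay between 1.52 and 20.0 RPKM with no call. The other 4 were not tested: the muscle gene Cacng1 reached 0.0713 RPKM, Cacng7 1.97 and Cacng8 0.230 RPKM in their highest library, and Cacng6 had no read in any.

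**Figure D3:**
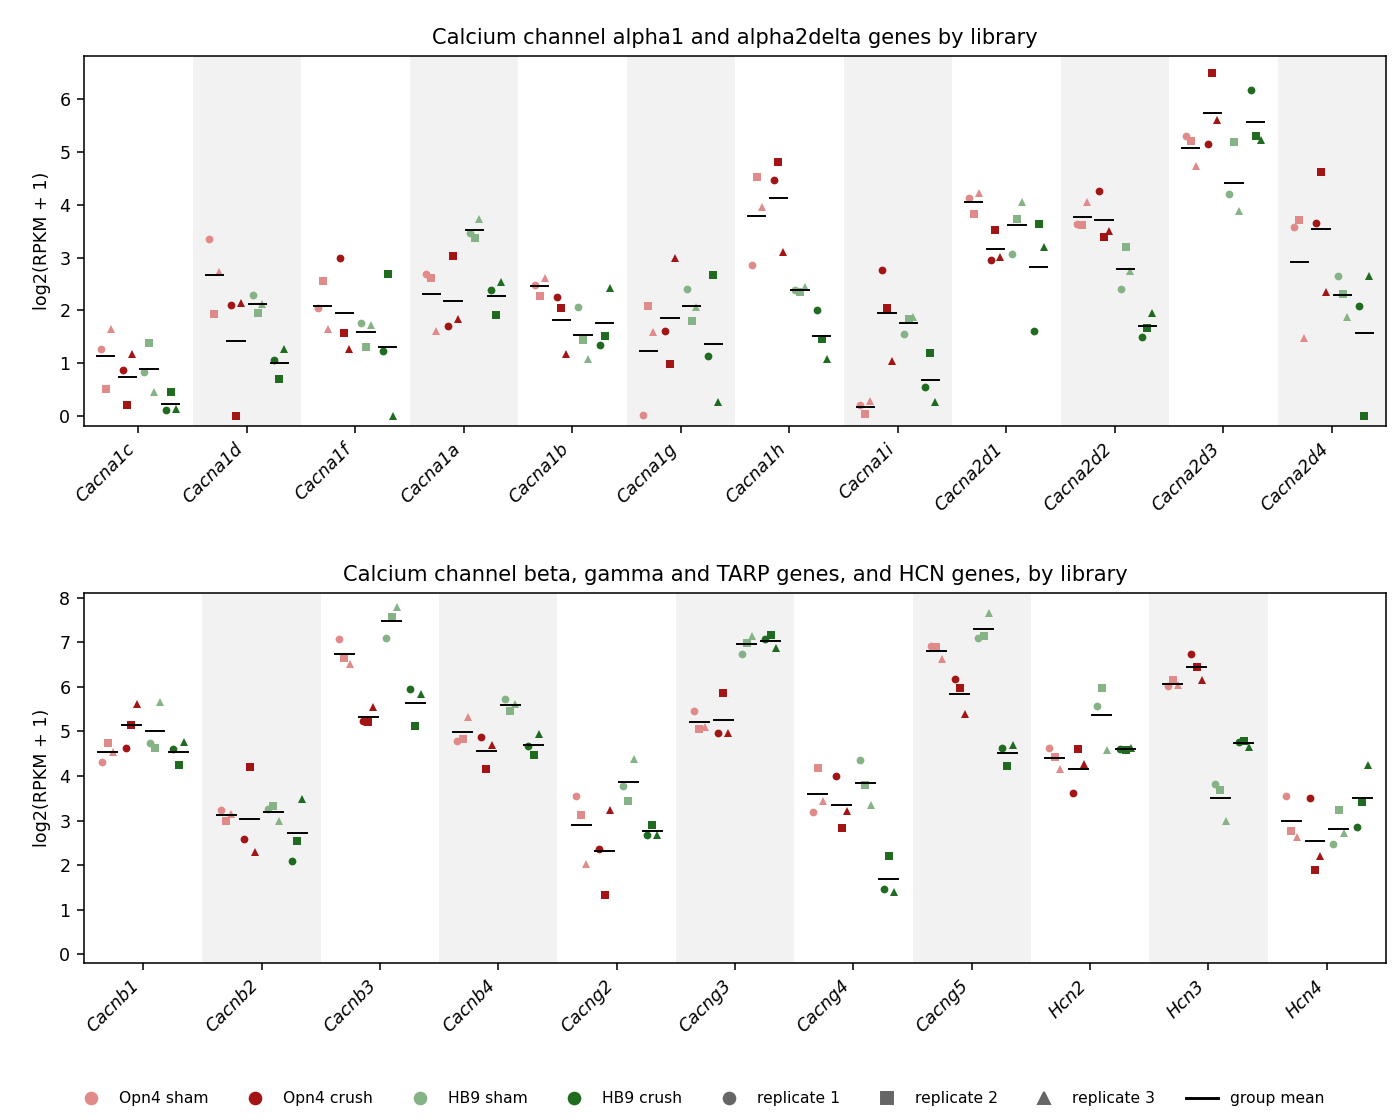
Levels of the tested calcium channel genes (top, pore and alpha2delta genes; bottom, beta and Cacng genes) and 3 HCN genes (bottom right) as log2(RPKM + 1) in the 12 libraries, drawn with the same colours, shapes and bars as the sodium channel levels. Cacnb3 and Cacng5 lie lower in all crush libraries than in the sham libraries of their class, and Hcn3 lies higher in all Opn4 libraries than in any HB9 library.

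The 4 HCN genes were all tested, and Hcn3 was higher in Opn4 cells. Hcn3 (ENSMUSG00000028051, chromosome 3, 89146074 to 89160196), whose channel responds little to cyclic AMP, was at 64.2, 70.5 and 64.5 RPKM in Opn4 sham and 13.2, 11.8 and 6.96 RPKM in HB9 sham libraries. After crush it was at 106, 85.99 and 69.9 RPKM in Opn4 and 26.3, 26.5 and 24.3 RPKM in HB9 libraries. The classes did not overlap in either state, with log2 differences of 2.57 ± 0.26 (limma adjusted p = 3.44e-05) and 1.71 ± 0.26 (adjusted p = 0.000893). Hcn3 was the only channel gene to rise past the threshold after crush, by 1.24 ± 0.26 in HB9 cells (limma adjusted p = 0.0111). In Opn4 cells the change was 0.37 ± 0.26 (adjusted p = 0.550), and the effects differed by -0.86 ± 0.36 (0.336).

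Hcn2 lay between 11.3 and 61.5 RPKM and Hcn4, the cardiac pacemaker channel with the slowest opening, between 2.72 and 17.9 RPKM, and neither passed. Only in alternatives was Hcn2 called. It was lower in Opn4 cells after sham with library weights (-1.26, limma adjusted p = 0.0235) and without HB9 sham replicate 3 (-1.36, 0.0301). With library weights Hcn2 also fell after crush in HB9 cells (-0.98, limma adjusted p = 0.0324).

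**Figure D4:**
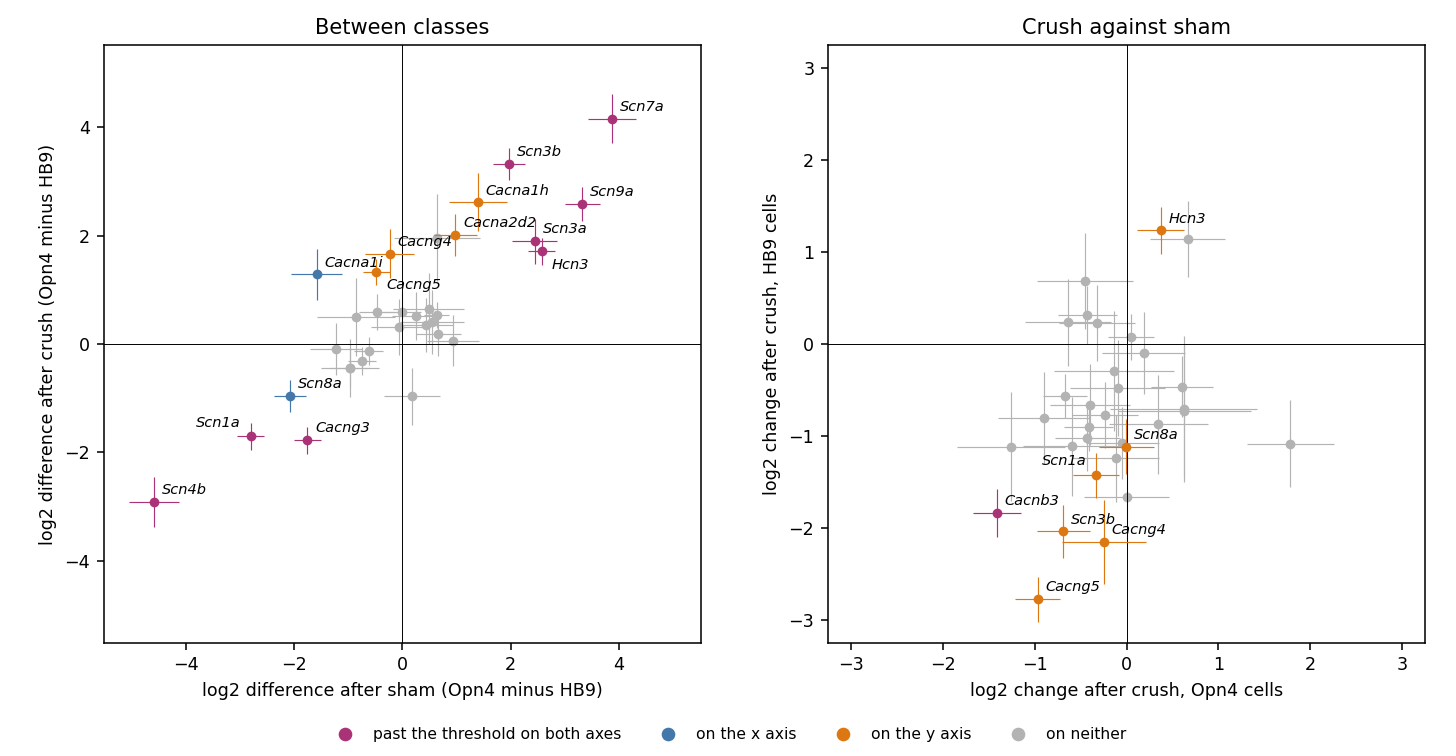
Log2 differences of 32 tested channel genes with limma SE bars. Left, Opn4 minus HB9 after sham (x axis) and after crush (y axis), and right, crush minus sham in Opn4 cells (x axis) and in HB9 cells (y axis), with genes past the threshold coloured and named. The 8 genes drawn as called on both axes at left keep their sign, and at right Cacnb3 is the only gene called on both axes.

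Partner genes of these channels, a list of 27 drawn up with earlier results of these data known, were measured alongside, and 24 were tested. Rem1, Stac and Cabp2 were not. Partner results come from the fit behind the reported counts, and the alternatives are not given for them. Opn4 cells held more of 3 and less of 5 after sham, where 5.82% of all genes were higher and 5.93% lower. After crush they held more of 5 and less of 5, where 5.12% were higher and 7.6% lower. The intracellular FGF-like factors bind the tail of sodium channel pores. Of these, Fgf12 was at 91.3, 112 and 111 RPKM in Opn4 sham and 412, 494 and 539 RPKM in HB9 sham libraries, which did not overlap (log2 difference -2.19 ± 0.16, limma adjusted p = 3.55e-06). Fgf11 differed by -2.87 ± 0.35 (adjusted p = 0.00018). After crush in HB9 cells Fgf12 fell by 1.28 ± 0.16 (limma adjusted p = 0.000378) and Fgf14 by 1.32 ± 0.34 (adjusted p = 0.0378).

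Among the regulators of calcium channels, Gem, a small GTPase that inhibits the channels through their beta subunit, ran from 17.8 to 93.1 RPKM in Opn4 libraries and from 0 to 3.68 RPKM in HB9 libraries (log2 difference 4.38 ± 0.69 after sham, limma adjusted p = 0.00115). The calcium sensor Cabp1, at -3.63 ± 0.37 (adjusted p = 4.26e-05), and the channel adaptor Stac2, at -3.22 ± 0.50 (0.00102), were lower in Opn4 cells. Dpysl2, a binding partner of N-type channels, fell by 0.68 ± 0.14 in HB9 cells after crush (limma adjusted p = 0.0121). The sodium leak channel Nalcn was higher in Opn4 cells, at 67.5, 95.7 and 95.8 RPKM against 27.6, 39.9 and 32.4 RPKM after sham (1.35 ± 0.28, limma adjusted p = 0.00780). Its partner Unc80 differed by 1.57 ± 0.47 after sham (limma adjusted p = 0.0478). After crush Nalcn still differed (1.42 ± 0.28, limma adjusted p = 0.00606). Unc80 (1.11 ± 0.47, limma adjusted p = 0.150) and Unc79 (0.26 ± 0.63, 0.837) did not pass after crush. Fam155a, of the same complex, went the other way after crush (-3.46 ± 0.58, limma adjusted p = 0.00197). After sham Fam155a did not pass (-0.13 ± 0.58, limma adjusted p = 0.928). The initial segment scaffold Sptbn4 was lower in Opn4 cells after sham (-1.76 ± 0.51, limma adjusted p = 0.0386), while its anchor ankyrin-G (Ank3) did not pass in any comparison. After crush, 0 of the 24 tested partners passed in Opn4 cells and 0 differed past the threshold in their crush effect between the classes (limma; 7 and 5 at an unadjusted p under 0.05, where 14.3% and 12.9% of all genes passed). In HB9 cells 0 rose and 3 fell, namely Fgf12, Fgf14 and Dpysl2, where 3.84% of all genes were higher and 2.57% lower. At an unadjusted p under 0.05 (limma) 8 of the 24 passed in HB9 cells, where 18.9% of all genes did.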

How the data were processed

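RNA was measured in 12 libraries, each of 3 pools of 10 picked ganglion cells, in 4 groups of 3 assigned by sample title. The deposited values are RPKM per gene made by the authors. Per the submitters' processing notes, TopHat2 2.0.11, Bowtie, edgeR 3.14.0 and build mm10 were used, without stated roles. The annotation and whether counting used strand are not given in the sources used here. Coordinates are those of the deposited table, and promoter sequences come from RefSeq (GRCm38.p6).

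Values were tested as log2(RPKM + 1) with limma 3.58.1 in R 4.3.3 (lmFit with 4 group means, contrasts.fit, eBayes with trend) over the 18269 genes whose RPKM was no lower than 1 in 3 or more libraries. Tests were two-sided, with Benjamini-Hochberg adjustment over all genes tested and a threshold of 0.05. Fold changes of low genes are understated on this scale. The fit shares a single spread per gene over all groups. It was tested on data simulated with such a shared spread, which do not cover unequal spread between groups.

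RPKM steps of genes up to 200 bp gave each library's scaling total, and 100% of those values were whole reads within 0.01. Recovered reads in tested genes summed to 221.8% to 238.8% of these totals, for a reason the files do not give, so they serve only for depth, floors of 3 reads over a group and 1 alternative. For 3 against 3 libraries an exact permutation test cannot go below 0.1, and none was used.

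Channel genes are named by the symbol rule; 3 of them enter the counts and sums but are not reported here. Partner and marker genes are named by list. The members and lists were chosen with earlier results of these data known. Alternatives varied the pseudocount, filter, scaling, library weights, libraries fitted, replicate block and a rod covariate. A voom fit on recovered reads, a fit without both Opn4 replicate 1 libraries and floor bounds without each HB9 library were added after seeing the data. Of the 44 genes, 19 overlap another listed gene, 13 of them one that reaches 1 RPKM.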

Additional observations from a re-analysis of the deposited data

Results flagged for a closer look

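Cacng5, the type II TARP gene, was singled out because its crush effect differed between the classes by a test of the difference itself. The log2 difference of the effects, Opn4 minus HB9, was 1.81 ± 0.35 (limma adjusted p = 0.0318), with crush libraries below sham libraries in both classes and further below in HB9 cells. The call ended in 14 of 22 alternatives, among them the replicate block (adjusted p = 0.0662) and the omission of any 1 HB9 library (0.0554 to 0.0901).

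Cacna1i, a T-type calcium channel pore, was singled out because all 3 crush libraries lay above the sham libraries in Opn4 cells and all 3 lay below them in HB9 cells. This rule involves no test. The log2 difference of the effects was 2.87 ± 0.67, and in the limma fit of all genes it did not pass (adjusted p = 0.0719). No HB9 library held more than 2.65 RPKM of Cacna1i and no Opn4 library more than 5.81 RPKM.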

How the results depend on the processing

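Of the 35 calls of channel genes in the 5 comparisons, 24 were kept in every alternative run, 11 ended in at least 1, and 0 reversed. A further 16 results were called only in an alternative. The counts of genes differing between classes stayed within 1.5 times the reported 12 and 14. The count for crush in Opn4 cells, reported as 1, was 0 with no filter, with library weights, with only the groups compared, without both libraries that stand apart and with voom on recovered reads, and 0 to 2 when 1 library was left out. The count for crush in HB9 cells rose from 7 to 15 with library weights, 1 higher and 14 lower. The count for the difference of the crush effects, reported as 1, was 0 with no filter, with the replicate block, without both libraries that stand apart and with voom, and 0 to 2 when 1 library was left out. On the log2 scale the median SD of a gene within a group was 0.472 in Opn4 sham and 0.508 in Opn4 crush libraries. It was 0.332 in HB9 sham and 0.337 in HB9 crush libraries. The fit behind the reported counts shares a single spread per gene over all groups, and therefore gives both classes the same SE. The part of this unequal spread in these moves, and any other cause, was not tested.

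Replicate numbers are not stated to pair the libraries. Same-numbered libraries of different groups had correlations of deviations from -0.022 to 0.081 (18 pairs), and others from -0.080 to 0.070 (36 pairs). Being taken over all tested genes, these correlations cannot show whether pairing affected some of the genes. With the replicate block 11 and 14 genes differed between classes after sham and crush, 1 changed in Opn4 cells, 6 in HB9 cells and 0 differed in effect.

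Over all genes, the rod covariate lowered the class counts from 2148 to 905 after sham and from 2325 to 999 after crush. The sham count was 1348 without HB9 sham replicate 2 and 1401 without replicate 3, and the crush count 1356 without HB9 crush replicate 1 and 1391 without replicate 3. The crush count in Opn4 cells went from 203 to 13 with only the groups compared and 87 with library weights. In HB9 cells it went from 1172 to 1939 and 3025 in these settings, and leaving out any 1 HB9 library gave 645 to 777. The count for the difference went from 149 to 90 with a pseudocount of 0.1, to 98 with the replicate block, to between 61 and 90 without any 1 HB9 library, and to 93 without Opn4 sham replicate 3. The voom fit on recovered reads called 1889 and 2112 genes between classes after sham and crush, 171 after crush in Opn4 cells, 1281 in HB9 cells and 128 for the difference. Quantile normalization moved the median gene by over 0.1 in comparisons with HB9 crush libraries (from 0.11 to -0.01 for crush in HB9 cells), and turned the 702 genes higher and 470 lower there into 600 and 605. Of the 420 values of tested channel genes, 17 were at 0 reads. Among these was Cacna1d in Opn4 crush replicate 2, against 523 and 661 recovered reads in replicates 1 and 3. The part of read depth in these zeros was not tested.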
